A study of Mus musculus with 4 samples.

Results

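The genes described here mark macrophages and other myeloid cells in mouse lung tumours from which leukocytes had been depleted. The list was named by symbol and held 33 genes, of which 32 had a row among the 24391 genes of each count file. Car4l had no row under that symbol and was not analysed here. All 32 listed genes were among the 16001 genes that passed the count filter and were tested. RNA sequencing was run on 4 samples. In the K-Ras group (n = 2) the tumours carried K-RasLSL-G12D, a mutant K-Ras allele that stays silent until Cre recombinase removes a stop cassette. In the K-Ras Mll4-/- group (n = 2) the tumours carried the same K-Ras allele together with Mll4fl/fl, a floxed form of the gene for the histone methyltransferase Mll4 (symbol Kmt2d). The K-Ras allele was therefore shared by both groups. The labels used here give no age, no sex, no route of Cre delivery and no statement that the numbered samples came from separate mice, so p-values measure the spread between these samples only.

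Macrophages, monocytes, neutrophils and dendritic cells all carry CD45, the surface protein encoded by Ptprc, against which the magnetic depletion was directed. In healthy lung the airspaces hold alveolar macrophages, which depend on the growth factor GM-CSF and the nuclear receptor Pparg and take up spent surfactant lipid. Interstitial macrophages sit in the tissue, express complement C1q and are kept by signals through the Csf1 receptor, while monocytes and neutrophils enter from blood. Transcripts of these cells measured after depletion therefore describe what remained in the sample. In bulk RNA, fewer cells of a type and less RNA per cell cannot be told apart.

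Reads assigned to genes numbered 26683033 to 36677987 per sample, and levels are given as CPM, counts scaled to a common library size of 1e6 reads with TMM factors (trimmed mean of M values). A floor of 3 reads corresponds to 0.083 to 0.114 CPM, for counting error only. Kmt2d was at 395 and 526 CPM in the K-Ras samples and at 367 and 317 CPM in the Mll4-/- samples. The log2 fold change was -0.43 (SE 0.21) and the gene was not called (edgeR adjusted p = 0.302). Counts over the whole gene do not show the loss of single exons, so the Mll4 genotype rests on the labels. The epithelial genes Epcam, Cdh1 and Krt8 were read in every sample, at 3099 to 7522, 8537 to 32270 and 6559 to 23425 reads, and so were the endothelial gene Pecam1 and the fibroblast gene Col1a1. The summed CPM of 10 epithelial genes ran from 14554 in K-Ras replicate 1 to 24830 in K-Ras replicate 2.

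Myeloid transcripts remained in every sample, and their amount differed far more between replicates than between genotypes. The 32 genes together took 0.932% of gene-assigned reads in K-Ras replicate 1, 0.119% in K-Ras replicate 2, 0.540% in Mll4-/- replicate 1 and 0.212% in Mll4-/- replicate 2. In each group the library numbered 1 was the richer, and the groups overlapped. Ptprc itself followed the same order within each group, with 8393 and 5162 reads in the K-Ras samples and 7061 and 5501 in the Mll4-/- samples. Summed over 8 genes shared by all leukocytes, the level was 1600 and 742 CPM in K-Ras and 1612 and 1088 CPM in Mll4-/- tumours. Cd3e, a chain of the T cell receptor complex, had 182 and 118 reads in K-Ras and 128 and 180 in Mll4-/- tumours. The list of 7 T cell genes to which it belongs summed to 104 and 47.8 CPM in K-Ras and to 87.2 and 83.5 CPM in Mll4-/- tumours. The leukocyte and T cell sums were thus higher in the same K-Ras library as the myeloid genes, and their part in each result was not tested.

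**Figure D1:**
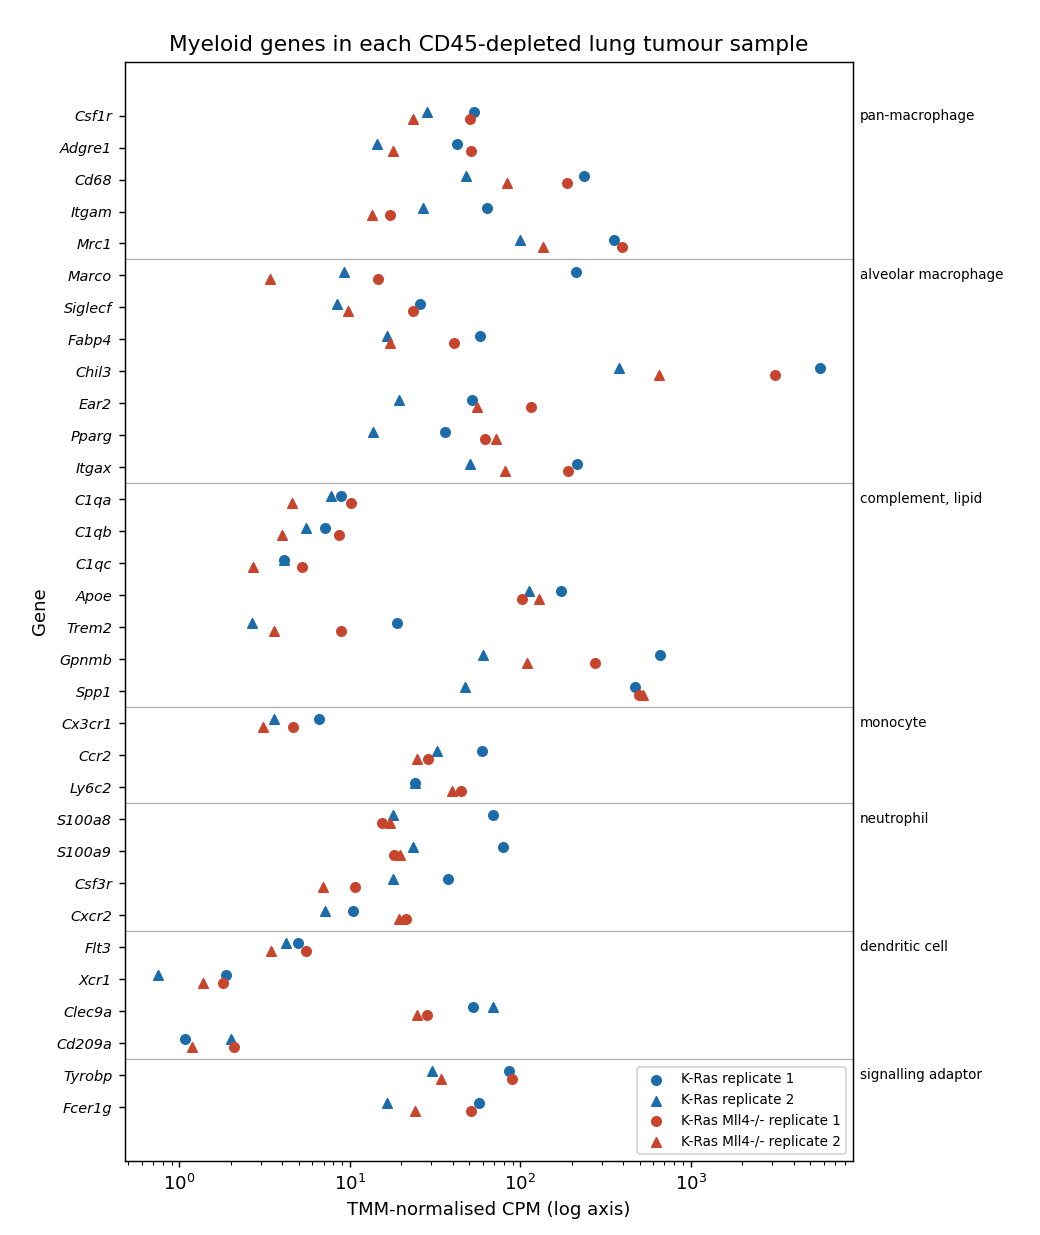
TMM-normalised CPM (log axis) of the 32 myeloid genes in each of the 4 samples, grouped by role, with circles for replicate 1 and triangles for replicate 2. Most macrophage genes show both circles to the right of both triangles, whatever the genotype. The colours separate for 5 genes higher in Mll4-/- tumours (15.6%, against 29.9% of all tested genes) and 6 lower (18.8%, against 28.5%). Among these are Itgam, Csf3r, Cxcr2, Ly6c2 and Clec9a, and also Ear2, Pparg and Spp1.

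No myeloid gene was called between the groups by the edgeR quasi-likelihood test at a Benjamini-Hochberg adjusted p under 0.05, a call made for 0.0375% of all tested genes. At an unadjusted p under 0.05, 3 of the 32 were higher in Mll4-/- tumours (9.38%, against 11.4% of all tested genes) and 3 were lower (9.38%, against 10.4%). Both Mll4-/- samples lay above both K-Ras samples for 5 genes (15.6%, against 29.9% of all tested genes) and below them for 6 (18.8%, against 28.5%). The remaining 21 overlapped. The median log2 fold change of the 32 genes was -0.06, beside -0.01 over all tested genes, and single genes ran from -3.62 to 1.43. DESeq2 called 6 of the 32, or 18.8%, against 10.2% of the genes to which it gave an adjusted p. Limma-voom called 0 of the 32, and 6 had an unadjusted p under 0.05 by that test, as had 3228 of the 16001 tested genes.

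The direction of the list rested on single libraries. With all 4 samples 12 of the 32 genes were higher in Mll4-/- tumours and 20 lower. Without K-Ras replicate 1, 22 were higher and 10 lower, and the median log2 fold change became 0.82. Without K-Ras replicate 2, 6 were higher and 26 lower, with a median of -0.61. Leaving out Mll4-/- replicate 1 gave 6 higher and a median of -0.75, and leaving out Mll4-/- replicate 2 gave 21 higher and a median of 0.32. For the list as a whole, no direction between the genotypes could be read from these samples.

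**Figure D2:**
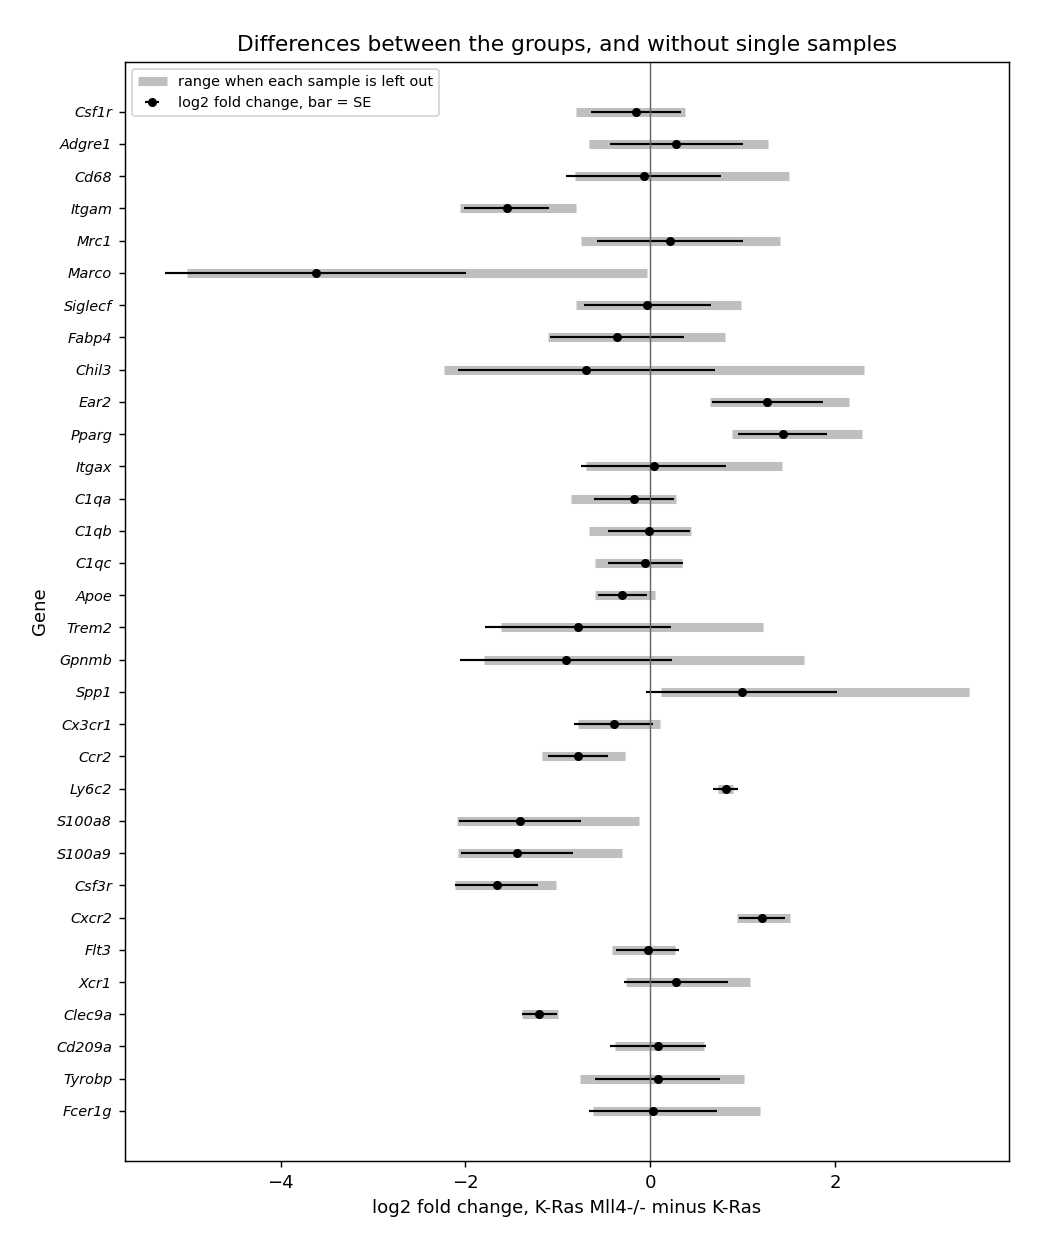
Log2 fold change of each myeloid gene, K-Ras Mll4-/- minus K-Ras (points, bars = SE), with grey bands for the range obtained when each of the 4 samples is left out in turn. The bands of Chil3, Gpnmb and Spp1 are among the widest, and those of Ly6c2 and Clec9a stay narrow on one side of 0.

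Genes expressed by macrophages in general were present in all 4 samples. Csf1r, the receptor for Csf1 and Il34 on which most macrophages depend, was at 53.6 and 28.4 CPM in the K-Ras samples and at 50.5 and 23.4 CPM in the Mll4-/- samples. Adgre1, which encodes the F4/80 antigen, was at 42.4 and 14.3 CPM in K-Ras and at 51.2 and 17.9 CPM in Mll4-/- tumours. The endolysosomal glycoprotein gene Cd68 stood at 237 and 48.1 CPM in K-Ras and at 188 and 83.6 CPM in Mll4-/- tumours. For all 3 genes both libraries numbered 1 were above both libraries numbered 2, and the groups overlapped. Mrc1, the macrophage mannose receptor, had the same order at 356, 99.98, 394 and 135 CPM, in the order K-Ras replicates 1 and 2, then Mll4-/- replicates 1 and 2. The log2 fold changes of these 4 genes lay between -0.15 and 0.28, with SEs from 0.49 to 0.84 and edgeR adjusted p values from 0.845 to 0.967.

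Itgam, which encodes the CD11b chain of the integrin CR3 on macrophages, monocytes and neutrophils, departed from this order. It was at 63.3 and 26.9 CPM in the K-Ras samples and at 17.3 and 13.4 CPM in the Mll4-/- samples. Both Mll4-/- values were below both K-Ras values, with group means of 15.4 ± 2.73 and 45.1 ± 25.8 CPM (SD, n = 2 each). The log2 fold change was -1.55 (SE 0.46), which was not called by edgeR (adjusted p = 0.186) and was called by DESeq2 (adjusted p = 0.0101). It stayed between -2.06 and -0.80 when single samples were left out, the smallest size being that without K-Ras replicate 1.

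The signalling adaptors showed how closely the general myeloid signal followed the replicate. Tyrobp (DAP12) and Fcer1g (the Fc receptor gamma chain) are short membrane proteins that carry activating signals for many myeloid receptors, Trem2 among them. Tyrobp was at 86.1 and 30.5 CPM in the K-Ras samples and at 89.0 and 34.3 CPM in the Mll4-/- samples. Fcer1g was at 57.3 and 16.5 CPM in K-Ras and at 51.1 and 24.1 CPM in Mll4-/- tumours. Their log2 fold changes were 0.08 (SE 0.68) and 0.03 (SE 0.69), with edgeR adjusted p values of 0.955 and 0.985, and the sign of the Fcer1g value turned to -0.05 with scaling by total counts. Among 13 fixed genes for ITAM-coupled receptors and their kinases, 0 were called, 5 were higher and 8 lower, with a median of -0.14 that became 0.54 without K-Ras replicate 1 and -0.66 without Mll4-/- replicate 1. Syk, the kinase recruited by these adaptors, had 5041 and 3189 reads in K-Ras and 3569 and 2501 in Mll4-/- tumours (log2 fold change -0.25, SE 0.42, edgeR adjusted p = 0.759).

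Alveolar macrophage genes varied widely between samples, largely through Chil3. Their summed level was 6292 CPM in K-Ras replicate 1 and 498 CPM in K-Ras replicate 2, against 3566 and 886 CPM in the Mll4-/- samples. The highest sample exceeded the lowest by 12.6-fold, compared with 5.58-fold for the complement and lipid genes, 3.45-fold for the 5 general macrophage genes and 2.17-fold for the 8 genes shared by leukocytes. Without Chil3, the other 6 alveolar genes summed to 595 and 118 CPM in K-Ras and to 446 and 239 CPM in Mll4-/- tumours, a ratio of 5.05 between highest and lowest. Most of this sum was Chil3 (Ym1), a secreted chitinase-like protein abundant in alveolar macrophages. It was at 5697 and 381 CPM in K-Ras and at 3120 and 646 CPM in Mll4-/- tumours, and made up 64.2%, 31.6%, 56.8% and 29.9% of all myeloid reads in the same order. Without Chil3 the other 31 myeloid genes still summed to 3175 and 825 CPM in K-Ras and to 2371 and 1512 CPM in Mll4-/- tumours. The log2 fold change of Chil3 was -0.69 (SE 1.39, edgeR adjusted p = 0.798), and it ran from -2.23 without Mll4-/- replicate 1 to 2.31 without K-Ras replicate 1.

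Marco, a scavenger receptor of airspace macrophages, was dominated by a single library. It was at 211 CPM in K-Ras replicate 1, against 9.19 CPM in K-Ras replicate 2 and 14.6 and 3.38 CPM in the Mll4-/- samples. The K-Ras replicates differed by 22.9-fold, the widest ratio between replicates of any of the 32 genes. Its log2 fold change, at -3.62 (SE 1.63), was the most negative of the list but was not called (edgeR adjusted p = 0.277). Without K-Ras replicate 1 it was -0.04.

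Siglecf and Fabp4 kept the order of the replicates. Siglecf, a sialic acid-binding receptor of alveolar macrophages and eosinophils, was at 25.6 and 8.44 CPM in K-Ras and at 23.5 and 9.74 CPM in Mll4-/- tumours (log2 fold change -0.03, SE 0.69, edgeR adjusted p = 0.980). Fabp4, a fatty acid-binding protein of alveolar macrophages that endothelium and fat also express, was at 57.6 and 16.5 CPM in K-Ras and at 40.6 and 17.1 CPM in Mll4-/- tumours (log2 fold change -0.36, SE 0.73, edgeR adjusted p = 0.797). Itgax, the CD11c integrin chain of alveolar macrophages and dendritic cells, was at 213 and 50.6 CPM in K-Ras and at 189 and 81.5 CPM in Mll4-/- tumours (log2 fold change 0.04, SE 0.79). In each of these genes the groups overlapped, and the adjusted p of Itgax was 0.981 by edgeR.

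Ear2 and Pparg were the alveolar macrophage genes that lay higher in both Mll4-/- samples. Ear2, an eosinophil-associated ribonuclease, was at 51.8 and 19.4 CPM in K-Ras and at 116 and 55.6 CPM in Mll4-/- tumours (log2 fold change 1.27, SE 0.60, edgeR adjusted p = 0.295). It belongs to a family of closely similar genes, so reads with more than 1 alignment were not counted for it. Ear1 of the same family had 513 and 201 reads in K-Ras and 682 and 457 in Mll4-/- tumours. Pparg, the nuclear receptor that drives alveolar macrophage differentiation and that epithelial and fat cells also express, was at 36.0 and 13.7 CPM in K-Ras and at 62.1 and 72.2 CPM in Mll4-/- tumours. Its log2 fold change, at 1.43 (SE 0.48), was not called by edgeR (adjusted p = 0.209) and was called by DESeq2 (adjusted p = 0.0278). Unlike the genes above, Pparg was not lower in the second Mll4-/- library.

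Further alveolar macrophage genes, fixed as a list of 11 with 10 tested, included 6 higher and 4 lower with 0 called and a median of 0.04, which ran from -0.62 without Mll4-/- replicate 1 to 1.09 without K-Ras replicate 1. Atp6v0d2, a proton pump subunit of these cells, had 9723 and 2095 reads in K-Ras and 6497 and 3259 in Mll4-/- tumours (log2 fold change -0.11, SE 0.89). Plet1 had 5801 and 3053 reads in K-Ras and 4568 and 2512 in Mll4-/- tumours (log2 fold change -0.12, SE 0.55). In both genes the libraries numbered 1 were above those numbered 2, as for Siglecf and Fabp4. Car4, a carbonic anhydrase of alveolar macrophages and capillary endothelium, had 2632 and 2785 reads in K-Ras and 2907 and 1823 in Mll4-/- tumours. Scaled to library size, Car4 had the same order, at 86.1 and 77.1 CPM in K-Ras and at 111 and 56.6 CPM in Mll4-/- tumours.

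**Figure D3:**
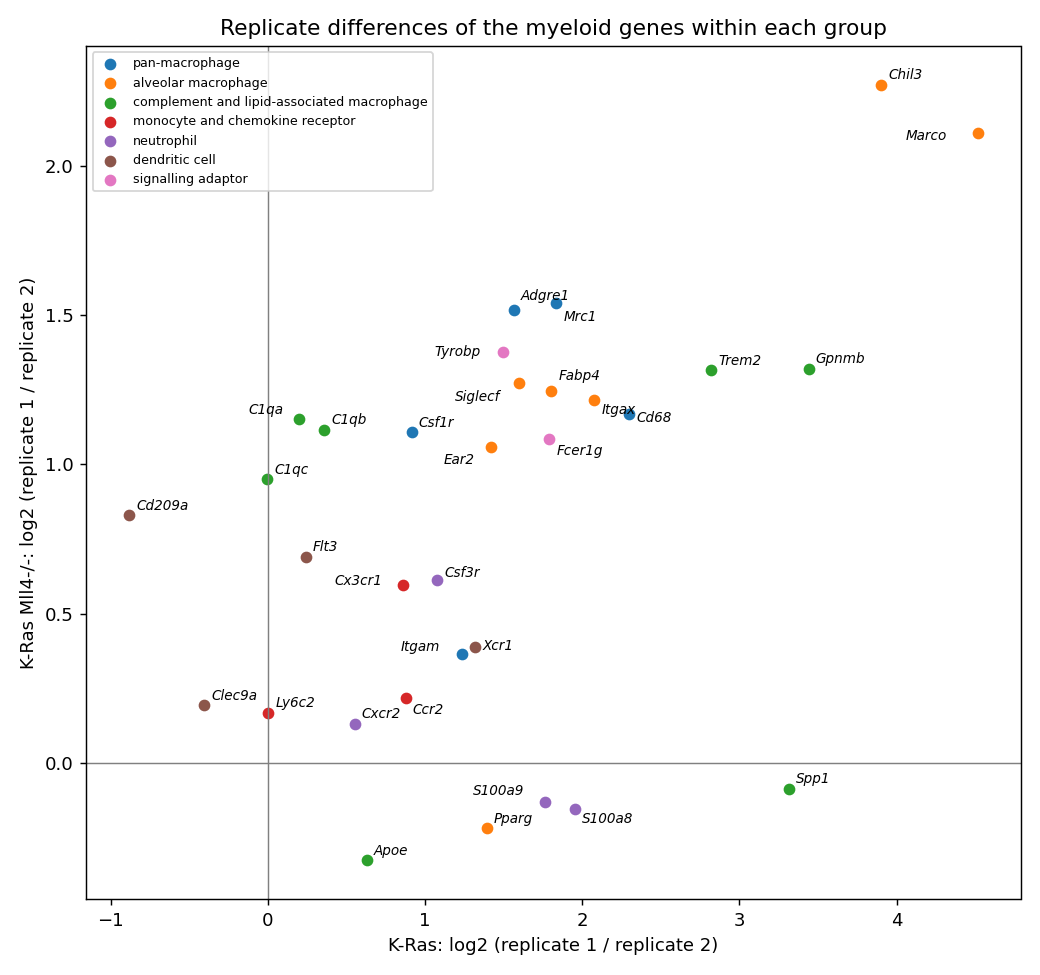
Log2 ratio of replicate 1 to replicate 2 of each myeloid gene in the K-Ras group (horizontal) and in the Mll4-/- group (vertical), coloured by role. Alveolar and general macrophage genes lie mostly in the upper right, with Chil3 and Marco farthest out, while Clec9a and Ly6c2 lie near 0 on the vertical axis and Spp1 is apart only in the K-Ras group.

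The difference between replicates was uneven across the roles. In both groups the first library exceeded the second by more than 1.5-fold for 16 of the 32 genes. These were 4 of 5 general macrophage genes, 6 of 7 alveolar macrophage genes, both adaptors, 2 of 7 complement and lipid genes, 1 of 3 monocyte genes, 1 of 4 neutrophil genes and 0 of 4 dendritic cell genes. Of these 16 genes, 14 overlapped between the genotypes, compared with 7 of the other 16. Over all tested genes, 29.9% lay higher and 28.5% lower in Mll4-/- tumours without overlap. The share of all tested genes over 1.5-fold in both groups was not determined. The 16 were chosen on these values, which favours overlap, so the counts are a description.

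Complement C1q is a secreted complex of 3 related chains made by interstitial and resident tissue macrophages. C1qa was at 8.86 and 7.72 CPM in the K-Ras samples and at 10.1 and 4.56 CPM in the Mll4-/- samples, and C1qb at 7.10 and 5.53 CPM in K-Ras and at 8.61 and 3.97 CPM in Mll4-/- tumours. C1qc was at 4.09 and 4.10 CPM in K-Ras and at 5.22 and 2.70 CPM in Mll4-/- tumours. The 3 chains had the same order across the Mll4-/- samples and stayed nearly level across the K-Ras samples, where Chil3 differed by 14.97-fold. Their log2 fold changes were -0.18, -0.01 and -0.05, with SEs of 0.43, 0.44 and 0.40 and edgeR adjusted p values of 0.839, 0.993 and 0.953. The C1qb value turned to 0.001 with no count filter.

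Genes of lipid-laden macrophages had wide replicate differences. Trem2, a lipid-sensing receptor that signals through Tyrobp, was at 18.8 and 2.66 CPM in K-Ras and at 8.87 and 3.57 CPM in Mll4-/- tumours (log2 fold change -0.78, SE 1.005, edgeR adjusted p = 0.676). Gpnmb, a lysosome-associated glycoprotein, was at 658 and 60.6 CPM in K-Ras and at 273 and 109 CPM in Mll4-/- tumours (log2 fold change -0.91, SE 1.15, edgeR adjusted p = 0.671). Both were highest in K-Ras replicate 1, and without that library their log2 fold changes were 1.22 and 1.66. Apoe, the lipid carrier made by macrophages and other cells, was more even, at 173 and 112 CPM in K-Ras and at 103 and 129 CPM in Mll4-/- tumours (log2 fold change -0.30, SE 0.26, edgeR adjusted p = 0.539). Of 12 fixed genes for lysosomes and lipid handling, 8 were higher and 4 lower with 0 called, and their median was 0.15, or 0.95 without K-Ras replicate 1 and -0.29 without K-Ras replicate 2. Ctsd, the lysosomal protease cathepsin D, had 66930 and 27368 reads in K-Ras and 46682 and 39703 in Mll4-/- tumours (log2 fold change 0.03, SE 0.56, edgeR adjusted p = 0.979).

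Spp1 (osteopontin), a secreted phosphoprotein of macrophages and of tumour epithelium, was low in a single sample. It was at 468 and 47.0 CPM in K-Ras and at 496 and 526 CPM in Mll4-/- tumours. Both Mll4-/- samples were above both K-Ras samples, with K-Ras replicate 1 close to the lower of them. The log2 fold change was 0.99 (SE 1.03, edgeR adjusted p = 0.604), and it was 3.45 without K-Ras replicate 1 and 0.11 without K-Ras replicate 2. Spp1 did not differ between the Mll4-/- libraries in the way Tyrobp did, and per 100 Tyrobp reads it stood at 543 and 154 reads in K-Ras and at 557 and 1534 in Mll4-/- tumours.

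Monocyte genes differed less between replicates. Ccr2, the chemokine receptor by which monocytes leave the marrow, was at 59.2 and 32.3 CPM in K-Ras and at 28.6 and 24.6 CPM in Mll4-/- tumours, without overlap (log2 fold change -0.78, SE 0.33, edgeR adjusted p = 0.256). Cx3cr1, the fractalkine receptor of patrolling monocytes and some interstitial macrophages, was low throughout, at 6.54 and 3.60 CPM in K-Ras and at 4.65 and 3.07 CPM in Mll4-/- tumours (log2 fold change -0.39, SE 0.43, edgeR adjusted p = 0.616). Ly6c2, a surface antigen of inflammatory monocytes, went the other way, at 24.0 CPM in both K-Ras samples and at 44.9 and 39.9 CPM in Mll4-/- tumours. The replicate spread of Ly6c2 was small, with group means of 24.0 ± 0.0316 and 42.4 ± 3.51 CPM (SD, n = 2 each). Its log2 fold change, at 0.82 (SE 0.14), was not called by edgeR (adjusted p = 0.147), was called by DESeq2 (adjusted p = 0.0058), and stayed between 0.74 and 0.89 when single samples were left out. Its near-identical neighbour Ly6c1, which lung endothelium expresses, had 11835 and 17055 reads in K-Ras and 9506 and 9467 in Mll4-/- tumours, against 735 to 1286 reads of Ly6c2, so a share of Ly6c2 reads may belong to either gene.

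Neutrophil genes did not share a direction. Csf3r, the G-CSF receptor, and the calprotectin chains S100a8 and S100a9 were lower in both Mll4-/- samples. For S100a8 the margin to K-Ras replicate 2 was narrow, at 17.9 CPM against 15.5 and 17.2 CPM. For S100a9 it was 23.3 CPM against 18.0 and 19.7 CPM. Cxcr2, the receptor for neutrophil-attracting chemokines, was higher in both Mll4-/- samples. The promoters of these 4 genes are printed because the genes lay on opposite sides. Each runs from 250 bases before to 50 bases after the RefSeq start, 5′ to 3′ on the gene's strand (GRCm38.p6). Capitals mark matches on either strand to GAGGAAG, a core bound by PU.1, and to TTNNGNAA, a C/EBP-type element, both being factors of myeloid development.
Csf3r, chr4:126024409-126024708, plus strand: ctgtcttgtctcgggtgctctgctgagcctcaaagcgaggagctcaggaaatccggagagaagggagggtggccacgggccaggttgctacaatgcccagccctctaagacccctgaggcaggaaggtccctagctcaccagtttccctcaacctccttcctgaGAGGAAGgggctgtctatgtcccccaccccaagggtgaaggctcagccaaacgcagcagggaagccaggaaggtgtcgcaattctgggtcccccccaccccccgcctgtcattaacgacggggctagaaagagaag
S100a8, chr3:90668821-90669120, plus strand: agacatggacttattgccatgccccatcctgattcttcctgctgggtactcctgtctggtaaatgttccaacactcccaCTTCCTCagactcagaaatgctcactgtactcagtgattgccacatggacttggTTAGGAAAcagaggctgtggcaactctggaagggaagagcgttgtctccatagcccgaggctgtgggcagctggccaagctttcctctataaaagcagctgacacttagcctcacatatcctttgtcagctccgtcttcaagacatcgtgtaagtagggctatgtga
S100a9, chr3:90695672-90695971, minus strand: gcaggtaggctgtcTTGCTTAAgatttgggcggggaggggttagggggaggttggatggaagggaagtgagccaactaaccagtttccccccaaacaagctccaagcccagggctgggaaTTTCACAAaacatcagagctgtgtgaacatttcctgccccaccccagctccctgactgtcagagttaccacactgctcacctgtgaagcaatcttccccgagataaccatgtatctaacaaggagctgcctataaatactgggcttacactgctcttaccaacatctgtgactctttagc
Cxcr2, chr1:74153744-74154043, plus strand: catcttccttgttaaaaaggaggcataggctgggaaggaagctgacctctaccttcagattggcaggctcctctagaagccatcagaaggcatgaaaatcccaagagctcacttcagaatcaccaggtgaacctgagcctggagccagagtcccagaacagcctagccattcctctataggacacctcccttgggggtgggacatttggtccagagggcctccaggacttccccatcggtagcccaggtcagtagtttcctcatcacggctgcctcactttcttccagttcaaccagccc

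The PU.1 core was found once in the Csf3r and once in the S100a8 window, and the C/EBP-type element once in S100a8 and 2 times in S100a9, without overlap between matches. No match to either set of letters lies in the Cxcr2 window. Of 27025 RefSeq promoters of this length, 13.5% held the PU.1 core and 40.7% the C/EBP-type element. A promoter was found for 27 of the 32 myeloid genes, of which 10 (37.0%) held the first and 16 (59.3%) the second. Of the other genes higher in both Mll4-/- samples, Ly6c2 held both, Spp1 held the first and Ear2 the second. Neither Pparg, also higher, nor Clec9a, which was lower in both, was among the genes with a match. Each match is a description of the letters only.

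Csf3r was at 37.8 and 17.9 CPM in the K-Ras samples and at 10.7 and 6.98 CPM in the Mll4-/- samples. All Mll4-/- values were below all K-Ras values, and the log2 fold change, at -1.66 (SE 0.45), was not called by edgeR (adjusted p = 0.177) but was called by DESeq2 (adjusted p = 0.00569). S100a8 was at 69.2 and 17.9 CPM in K-Ras and at 15.5 and 17.2 CPM in Mll4-/- tumours (log2 fold change -1.41, SE 0.66, edgeR adjusted p = 0.291). S100a9 was at 79.2 and 23.3 CPM in K-Ras and at 18.0 and 19.7 CPM in Mll4-/- tumours (log2 fold change -1.44, SE 0.60, edgeR adjusted p = 0.256). The calprotectin genes kept the same ranking of the 4 samples, and their difference rested on K-Ras replicate 1, without which the log2 fold changes were -0.12 and -0.30. That of Csf3r without the same library was -1.02.

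Cxcr2 was at 10.5 and 7.14 CPM in K-Ras and at 21.3 and 19.4 CPM in Mll4-/- tumours, with group means of 8.80 ± 2.35 and 20.3 ± 1.32 CPM (SD, n = 2 each). The log2 fold change, at 1.21 (SE 0.25), was not called by edgeR (adjusted p = 0.153), was called by DESeq2 (adjusted p = 0.00466), and lay between 0.94 and 1.51 without any 1 sample. Among 12 further neutrophil genes tested, 5 were higher and 7 lower with 0 called and a median of -0.85, or -0.38 without K-Ras replicate 1. Retnlg, a resistin-like protein of neutrophils, had 619 and 212 reads in K-Ras and 81 and 84 in Mll4-/- tumours (log2 fold change -2.20, SE 0.66, edgeR adjusted p = 0.188). Il1r2, the decoy receptor for interleukin 1, had 505 and 416 reads in K-Ras and 150 and 104 in Mll4-/- tumours (log2 fold change -1.65, SE 0.38, edgeR adjusted p = 0.163). Mmp9, a gelatinase of neutrophil granules and other cells, had 519 and 174 reads in K-Ras and 153 and 247 in Mll4-/- tumours, so the groups overlapped. The 2 first-named genes thus lay on the side of Csf3r and not on that of Cxcr2.

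Dendritic cell genes were near the lower end of the myeloid levels, apart from Clec9a. Flt3, the growth factor receptor of dendritic cell precursors, was at 4.97 and 4.21 CPM in K-Ras and at 5.56 and 3.44 CPM in Mll4-/- tumours (log2 fold change -0.03, SE 0.34, edgeR adjusted p = 0.967). Xcr1, a chemokine receptor characteristic of type 1 conventional dendritic cells, was at 1.86 and 0.747 CPM in K-Ras and at 1.79 and 1.37 CPM in Mll4-/- tumours (log2 fold change 0.28, SE 0.56, edgeR adjusted p = 0.799). Cd209a, a lectin of monocyte-derived and type 2 dendritic cells, was at 1.08 and 1.99 CPM in K-Ras and at 2.09 and 1.18 CPM in Mll4-/- tumours (log2 fold change 0.08, SE 0.52, edgeR adjusted p = 0.940). All 3 overlapped between the groups.

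Clec9a, a receptor for dead cells on type 1 dendritic cells, did not have the sample order of Xcr1, a marker of the same cell. It was at 52.4 and 69.4 CPM in the K-Ras samples and at 28.3 and 24.7 CPM in the Mll4-/- samples, without overlap, and the means were 60.9 ± 12.03 and 26.5 ± 2.52 CPM (SD, n = 2 each). The log2 fold change, at -1.20 (SE 0.19), had the smallest edgeR p-value of the 32 genes (unadjusted p = 0.00202, adjusted p = 0.144), was called by DESeq2 (adjusted p = 0.000268), and stayed between -1.39 and -0.997 when single samples were left out. Zbtb46, a transcription factor of conventional dendritic cells that endothelium also expresses, had 1443 and 1721 reads in K-Ras and 729 and 759 in Mll4-/- tumours (log2 fold change -0.89, SE 0.14, edgeR adjusted p = 0.144). Batf3, required for type 1 dendritic cells, had 44 and 18 reads in K-Ras and 24 and 16 in Mll4-/- tumours, and Irf8 had 1131 and 906 in K-Ras and 877 and 843 in Mll4-/- tumours. A sum over 6 endothelial genes was 3849 and 4047 CPM in K-Ras and 2903 and 2270 CPM in Mll4-/- tumours, so it had the order of Clec9a across the 4 samples. Its part in the Clec9a difference was not tested.

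Levels of different genes were compared per kilobase of the principal GENCODE M21 transcript. On this scale of CPM per kb, averaged over the 4 samples, Chil3 stood first at 1599, followed by Spp1 at 255, Cd68 at 113, Tyrobp at 106 and Apoe at 91.8. From Spp1 to Apoe, neighbours in this order overlapped in their ranges. These ran from 31.2 to 349 for Spp1, from 39.1 to 192 for Cd68, from 54.0 to 158 for Tyrobp and from 73.0 to 123 for Apoe. The lowest Chil3 sample, at 247, also lay within the Spp1 range. Within every sample, though, Chil3 was above Spp1, most narrowly in Mll4-/- replicate 2, at 420 against 349. The lower end held Flt3 at 1.24, Cd209a at 1.07, Cx3cr1 at 0.994 and Xcr1 at 0.324, and Clec9a stood much higher at 42.9. C1qa, C1qb and C1qc, at 7.52, 5.79 and 3.35, were of the order of Csf1r at 8.29 and Adgre1 at 9.72.

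Levels were also set against a general myeloid transcript of the same sample. Per 100 Tyrobp reads, Ear2 stood at 60.1 and 63.6 reads in K-Ras and at 130 and 162 in Mll4-/- tumours, and Itgam at 73.6 and 88.3 in K-Ras and at 19.4 and 39.2 in Mll4-/- tumours. Csf3r, on the same scale, was at 43.9 and 58.9 in K-Ras and at 11.99 and 20.4 in Mll4-/- tumours. Siglecf was nearly constant, at 29.7 and 27.7 in K-Ras and 26.5 and 28.4 in Mll4-/- tumours. Clec9a, at 60.9 and 228 in K-Ras and 31.8 and 72.1 in Mll4-/- tumours, and Ly6c2, at 27.9 and 78.8 in K-Ras and 50.4 and 116 in Mll4-/- tumours, overlapped on this scale though not in CPM. Of the 31 genes other than Tyrobp, 5 were higher and 6 lower without overlap, where 2.44% and 5.28% of all other tested genes were. Per 100 Ptprc reads 4 of the 32 were higher and 9 lower, where 5.43% and 15.6% of all other tested genes were. Many of the 32 genes are expressed by the cells that express Tyrobp and Ptprc, so no more is read from these shares. The ratios describe the samples, were not tested, and for 2 samples against 2 an exact permutation test cannot give a two-sided p below 0.333.

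**Figure D4:**
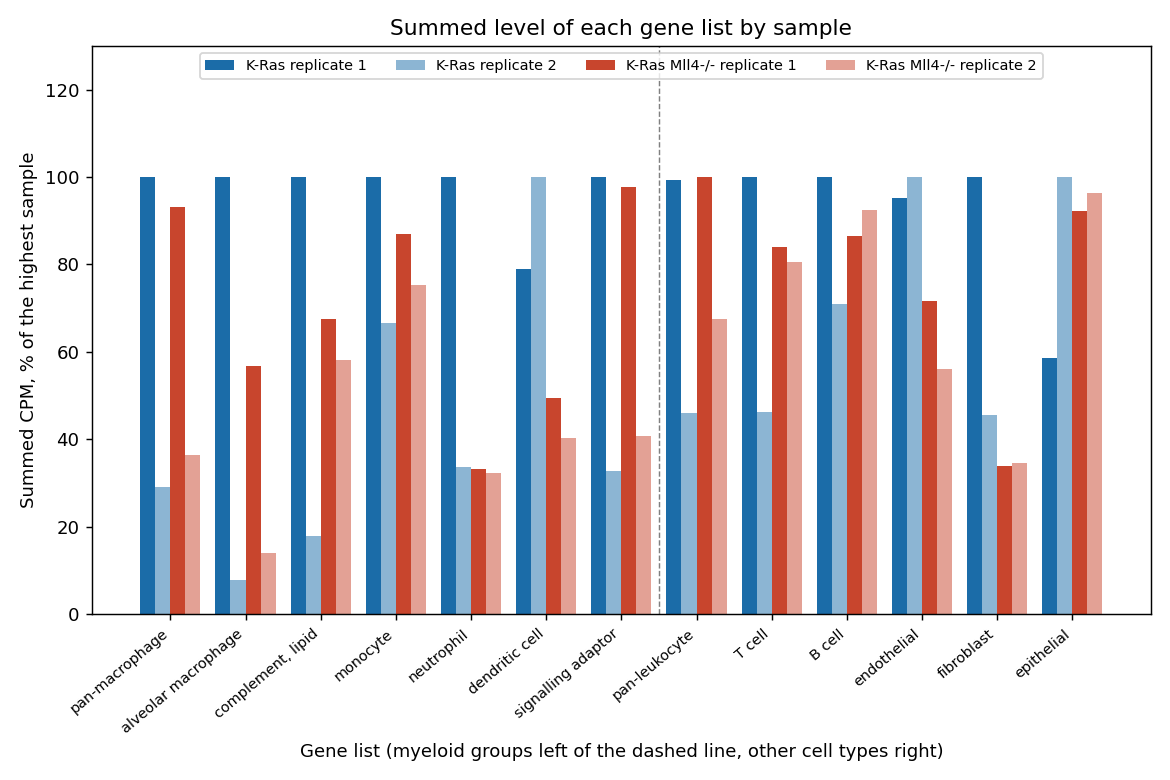
Summed CPM of each gene list as a percentage of its highest sample (bars from 0, 1 bar per sample, darker for replicate 1), with myeloid groups left of the dashed line and other cell types right of it. The pan-macrophage, alveolar and adaptor bars are tall in both first replicates, the neutrophil bar is tall in K-Ras replicate 1 only, and the dendritic bars, mostly Clec9a, are taller in both K-Ras samples, as the endothelial bars are.

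Of 9 tested genes for ligands that sustain myeloid cells and for their receptors, 6 lay lower in both Mll4-/- samples. The same held for 28.5% of all tested genes. These 6 were ligands, and the receptors listed with them overlapped between the groups. The list held 10 genes, of which Csf3 was not tested, with 8 and 7 reads in K-Ras and 0 and 4 in Mll4-/- tumours. It was chosen with earlier results of these data known, so its counts are a description. All 9 had negative log2 fold changes with TMM scaling, as had 8190 of 16001 tested genes. The 9 also stayed negative with total-count, upper-quartile and relative-log scaling. Those scalings lowered the median of all tested genes too (-0.065, -0.071 and -0.023, against -0.013), so the kept signs add little. The 9 genes had a median of -0.85, 0 were called by edgeR, and DESeq2 called 3, where it called 10.2% of all genes. Csf1 had 1939 and 1388 reads in K-Ras and 675 and 647 in Mll4-/- tumours (log2 fold change -1.15, SE 0.30, edgeR adjusted p = 0.175). Il34, the other ligand of Csf1r, had 534 and 734 reads in K-Ras and 290 and 378 in Mll4-/- tumours (log2 fold change -0.73, SE 0.18, edgeR adjusted p = 0.166). Csf2, which encodes GM-CSF, had 780 and 377 reads in K-Ras and 178 and 295 in Mll4-/- tumours (log2 fold change -1.17, SE 0.49, edgeR adjusted p = 0.256). Csf1r itself overlapped between the groups. Without K-Ras replicate 1, 3 of the 9 were higher and 6 lower with a median of -0.38, and without Mll4-/- replicate 2, 2 were higher. Summed fibroblast genes, which include cells that make Csf1, were at 2464 and 1121 CPM in K-Ras and 837 and 850 CPM in Mll4-/- tumours, and their part was not tested.

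Other macrophage genes from a fixed list of 16 included 4 higher and 12 lower with 0 called and a median of -0.39. Without K-Ras replicate 1, 8 were higher and 8 lower, as they were without Mll4-/- replicate 2. Lyz2 (lysozyme M), which alveolar type 2 cells also make, had 127592 and 152166 reads in K-Ras and 112988 and 90942 in Mll4-/- tumours (log2 fold change -0.23, SE 0.29, edgeR adjusted p = 0.663). Mertk, a receptor for the clearance of dead cells, had 3297 and 3684 reads in K-Ras and 2236 and 1482 in Mll4-/- tumours (log2 fold change -0.68, SE 0.32, edgeR adjusted p = 0.291). Fcgr1, the high-affinity IgG receptor, had few reads, at 48 and 72 in K-Ras and 141 and 89 in Mll4-/- tumours (log2 fold change 1.18, SE 0.45, edgeR adjusted p = 0.228). The first-replicate excess of Tyrobp and Adgre1 had little counterpart in the K-Ras group for Lyz2 (4173 and 4211 CPM) or Mertk (108 and 102 CPM). Among 12 other dendritic cell genes, 3 were higher and 9 lower with a median of -0.22, and among 10 other monocyte genes 2 were higher and 8 lower with a median of -0.46, with 0 called in either list.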

How the data were processed

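RNA sequencing was run on 4 samples of tumour cells after CD45 depletion. The authors deposited 1 table of unnormalised read counts by gene symbol for each sample. CASAVA 1.4, STAR, HTSeq and the build mm9 are named in the submitters' processing notes, with no role given. Annotation and strand setting are not given in the sources used here, so overlapping and antisense genes cannot be told apart. Lines that name no gene (60.1% to 65.6% of all tallied reads) were left out, and multiply aligned reads among them were not assigned, which lowers genes with close copies.

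Groups and replicate numbers came from the titles. Counts were fitted in edgeR 4.0.16 (R 4.3.3) with the default count filter, TMM scaling and the robust quasi-likelihood test, Benjamini-Hochberg adjustment running over all tested genes. SEs are the log2 fold change over the square root of F. Each pair of values is replicate 1, then replicate 2. DESeq2 1.42.0, limma-voom 3.58.1, other scalings and filters, the replicate number as a block, and leaving out each sample were alternatives. Fits were tested on simulated data. The genes and lists were chosen with earlier results of these data known. Every listed myeloid gene was described, and genes of the other lists were named from the first 3 of each in a fixed order. Kmt2d, Ear1, Hdc and Ms4a2 were named outside that order, after their values were seen. Calls used an adjusted p under 0.05.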

Additional observations from a re-analysis of the deposited data

How the results depend on the processing

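Against 6 genes called overall and 0 of the 32 myeloid genes, total-count, upper-quartile and relative-log scaling and a filter of 1 CPM gave 5 to 7 and 0. No count filter gave 44 and 0, DESeq2 1613 and 6, and limma-voom 0 and 0. With the replicate number as a block 217 genes were called, 2 of them myeloid (Csf3r and Ear2). The titles give both groups the same numbers without saying what they share, and deviations of same-numbered samples correlated at 0.243 over tested genes and at 0.482 over the 32 myeloid genes. Leaving out single samples gave 0 to 528 genes and 0 to 4 myeloid genes, the highest of both without K-Ras replicate 1 (Clec9a, Cxcr2, Pparg and Spp1). The cause of these changes was not tested. A lone sample is then assumed to vary like the other group.

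Signs turned for Cd68 (0.23 with the replicate block and with limma-voom), Siglecf (0.0395 and 0.0425 with the same fits), Itgax (-0.043 with total-count and -0.035 with upper-quartile scaling), Fcer1g (-0.050 and -0.044 with the same scalings) and C1qb (0.001 with no filter). Over the 32 genes and these alternatives, 9 values reversed, 8 became called and 239 kept their direction and side of the threshold. When single samples were left out, 33 reversed, 4 became called and 91 did neither. The log2 fold changes then ran from -0.80 to 0.38 for Csf1r, -0.66 to 1.27 for Adgre1, -0.82 to 1.498 for Cd68, -0.75 to 1.41 for Mrc1, -0.80 to 0.98 for Siglecf, -1.11 to 0.81 for Fabp4, -2.23 to 2.31 for Chil3, -0.69 to 1.42 for Itgax, -0.86 to 0.28 for C1qa, -0.66 to 0.44 for C1qb, -0.59 to 0.34 for C1qc, -0.59 to 0.053 for Apoe, -1.61 to 1.22 for Trem2, -1.80 to 1.66 for Gpnmb, -0.78 to 0.10 for Cx3cr1, -0.41 to 0.27 for Flt3, -0.26 to 1.08 for Xcr1, -0.38 to 0.58 for Cd209a, -0.76 to 1.02 for Tyrobp and -0.62 to 1.19 for Fcer1g. Depth limits Xcr1 and Cd209a most, at 27 to 72 reads per sample.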

Other observations

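Basophils and mast cells are myeloid cells that the genes described above do not mark. Mcpt8, a protease typical of basophils, had 18 and 50 reads in the K-Ras samples and 635 and 1187 in the Mll4-/- samples (log2 fold change 4.93, SE 0.51). Both Mll4-/- samples were above both K-Ras samples, and the gene was not called (edgeR adjusted p = 0.116). Mcpt4, a mast cell protease, was also higher in both Mll4-/- samples at few reads, with 20 in each K-Ras sample and 73 and 33 in Mll4-/- tumours (log2 fold change 1.64, SE 0.62, edgeR adjusted p = 0.228). The other genes of the list differed, with Hdc lower in both Mll4-/- samples and the rest overlapping. Cpa3, a carboxypeptidase of mast cells and basophils, had 24 and 46 reads in K-Ras and 25 and 38 in Mll4-/- tumours, and Ms4a2, the beta chain of their IgE receptor, had 28 and 124 in K-Ras and 48 and 64 in Mll4-/- tumours. Of the 6 genes in this list 5 were tested, 3 were higher and 2 lower, and 0 were called by edgeR, while Mcpt8 and Mcpt4 had an unadjusted p under 0.05 and were higher, as were 11.4% of all tested genes. What these reads derive from was not tested.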
